A study of Mus musculus with 2 samples.

Results

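AA467197 (also called Nmes1, gene identifier 433470) and Ndufa4 (gene identifier 17992) are 2 paralogous mouse genes that encode small mitochondrial proteins. They were followed in bone-marrow-derived macrophages with and without lipopolysaccharide (LPS). All probe sets that the array annotation assigns to either gene alone were taken. These came to 2 of the 45101 probe sets on the array, 1 for each gene, and to 2 of the 18193 genes that have such a probe set. AA467197 was chosen by its signals on these same 2 arrays, where it stood among the genes with the largest increase, and Ndufa4 as its paralogue. The ratio of AA467197 is therefore a description and supports nothing further.

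The macrophages came from bone marrow of C57BL6 mice, and both groups were grown in RPMI with serum and macrophage colony-stimulating factor, the cytokine that turns marrow precursors into macrophages. One group was left without LPS, an outer-membrane lipid of Gram-negative bacteria and the ligand of Toll-like receptor 4, and the other received it. The labels give neither the dose nor the duration of LPS, nor the number or sex of the mice. Biotin-labelled total RNA was read on Affymetrix Mouse Genome 430 2.0 arrays, 1 array for each condition. There are therefore no replicates: every difference below lacks a replicate check, no p-value was computed, and precision is limited by having so few arrays.

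Ndufa4 protein was first assigned to complex I of the respiratory chain and is now regarded as a subunit of complex IV, cytochrome c oxidase, the enzyme that passes electrons from cytochrome c to oxygen. Nmes1 protein is known to enter complex IV in the place of Ndufa4 during inflammation. The AA467197 transcript is also the host of a microRNA, miR-147, and Ndufa4 mRNA is a known target of that microRNA family. A microRNA is a short RNA that lowers the stability or translation of mRNAs matching its seed, the bases 2 to 8 from its 5′ end.

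The microRNA hairpin is shown because it is part of AA467197, the gene whose signal was so much higher after LPS. The hairpin lies on the plus strand at chr2:122640803-122640881 (RefSeq, GRCm38.p6), inside AA467197, and ends 195 bases before the end of that gene. Capitals mark the 5p mature arm in the hairpin, and the seed of that arm in the mature sequence. The other arm, mmu-miR-147-3p, and its seed are not shown here, because the microRNA sequences used held no separate entry for it.
Mir147 hairpin: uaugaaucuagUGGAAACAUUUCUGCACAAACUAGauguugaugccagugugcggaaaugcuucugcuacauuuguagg
mmu-miR-147-5p: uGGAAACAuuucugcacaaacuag
Its 24 bases span chr2:122640814-122640837. The 5p seed GGAAACA was shared by 0 other mature sequences among the 1738 in the RefSeq table used. No match of either arm to Ndufa4 mRNA was searched, so this seed is not shown to be the one that targets Ndufa4. The array reads the host transcript, and no level of the microRNA itself was measured.

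The promoter windows of both genes, 250 bases before to 50 bases after the annotated start, are shown because the transcripts of these paralogues differed so much in ratio. Capitals mark the matches to any motif searched, on either strand.
AA467197, plus strand, chr2:122637637-122637936: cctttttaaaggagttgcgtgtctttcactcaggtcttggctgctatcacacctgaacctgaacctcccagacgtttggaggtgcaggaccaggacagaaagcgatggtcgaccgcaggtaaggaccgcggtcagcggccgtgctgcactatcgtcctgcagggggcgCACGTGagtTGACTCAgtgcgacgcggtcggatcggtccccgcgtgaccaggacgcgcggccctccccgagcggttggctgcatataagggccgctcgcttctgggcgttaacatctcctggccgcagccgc
Ndufa4, minus strand, chr6:11907401-11907700: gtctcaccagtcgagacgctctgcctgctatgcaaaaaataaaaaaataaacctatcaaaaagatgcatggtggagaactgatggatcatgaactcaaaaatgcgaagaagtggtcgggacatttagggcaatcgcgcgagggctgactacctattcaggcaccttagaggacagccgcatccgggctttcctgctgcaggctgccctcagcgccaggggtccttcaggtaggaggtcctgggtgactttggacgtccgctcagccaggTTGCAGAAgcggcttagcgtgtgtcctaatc
Both sequences are from RefSeq, GRCm38.p6.

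In the AA467197 window, the E-box letters CACGTG began 82 bases and the AP-1 letters TGANTCA 73 bases before the start. Of the 32851 RefSeq windows of the same length, 7.15% held the E-box letters and 7.81% the AP-1 letters. The Ndufa4 window held 1 match, to the C/EBP letters TTGCNNAA, beginning at base 20 of the transcript; 10.8% of all windows held these. Neither window matched the STAT letters TTCNNNGAA (8.3% of windows), TATAAA (13.6%) or the ETS letters CCGGAAG (8.86%). No match overlapped another. The AA467197 window was 62.7% and the Ndufa4 window 53% G or C, against a median of 52.7% over all windows. A match describes letters and not the binding of a factor, and no binding was measured. The motifs were chosen with these windows in view, so the shares show how common the letters are and test nothing. Letters for NF-kB, whose subunit genes are read below, were not searched.

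AA467197 was near the limit of what the control array could resolve and bright on the LPS array. Its probe set, 1434046_at, gave a control signal of 34.8 and an LPS signal of 4783. The floor, taken as each array's own median signal, was 35.1 for the control and 26.7 for LPS, so the control signal lay just under it. Set to the floor, the control signal gives a log2 ratio (LPS over control) of at least 7.09, or at least 136-fold higher, and the deposited signals without a floor give 137-fold. Of the 11722 genes measured, meaning at or above the floor on at least 1 array, 8.22% were higher after LPS by 2-fold or more and 26.2% were lower by 2-fold or more. Only 10 genes, 0.0853% of those measured, were at least 100-fold higher. AA467197 stood 7th from the top, a position that the rule for choosing it used and that is itself a bound because the control signal is at the floor. In such bulk RNA, a change in the number of cells that express a gene and in RNA per cell cannot be told apart.

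Ndufa4 was bright on both arrays and differed little between them. Its probe set, 1424085_at, gave 2426 for the control and 2043 for LPS. The log2 ratio was -0.25, so the LPS signal was 84.2% of the control signal. For scale, the median SD of log2 ratios among the probe sets of 1 gene was 0.28, and the Ndufa4 difference was smaller. That SD was taken over 4494 genes with 2 or more probe sets at or above both floors. It compares probe sets on the same 2 arrays and holds no spread between arrays or mice, which was not measured. Over all measured genes the median log2 ratio was -0.42, and its cause was not tested. Ndufa4 thus stood 0.18 above the typical gene, at percentile 59.5. The median varied with brightness. Among the 660 genes whose mean log2 signal lay within 0.5 of that of Ndufa4, it was 0.00, with quartiles of -0.48 and 0.70. Ndufa4 was at percentile 37.3 of these genes. In all, 5 scalings were tried: to the hybridization controls, to the poly-A controls, by median centring, by loess and by quantile normalization. The direction of Ndufa4 was not settled, since it turned positive after centring on the median gene (0.18) and when scaled to poly-A control probe sets (0.04).

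With the floor at the array median, the paralogues thus differed from each other by at least 7.34 in log2 ratio, or at least 162-fold. The bound moves with the floor, and was 5.97, or 62.5-fold, with the floor at the 65th percentile. This difference compares how each gene changed between the arrays. The levels of the paralogues cannot be set against each other, because each probe set has its own brightness. The other Ndufa4-related gene on the array, Ndufa4l2, which encodes a paralogue induced by low oxygen, had signals of 9.19 and 22.6. Both lay under the floors, so no fold is given for it.

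**Figure D1:**
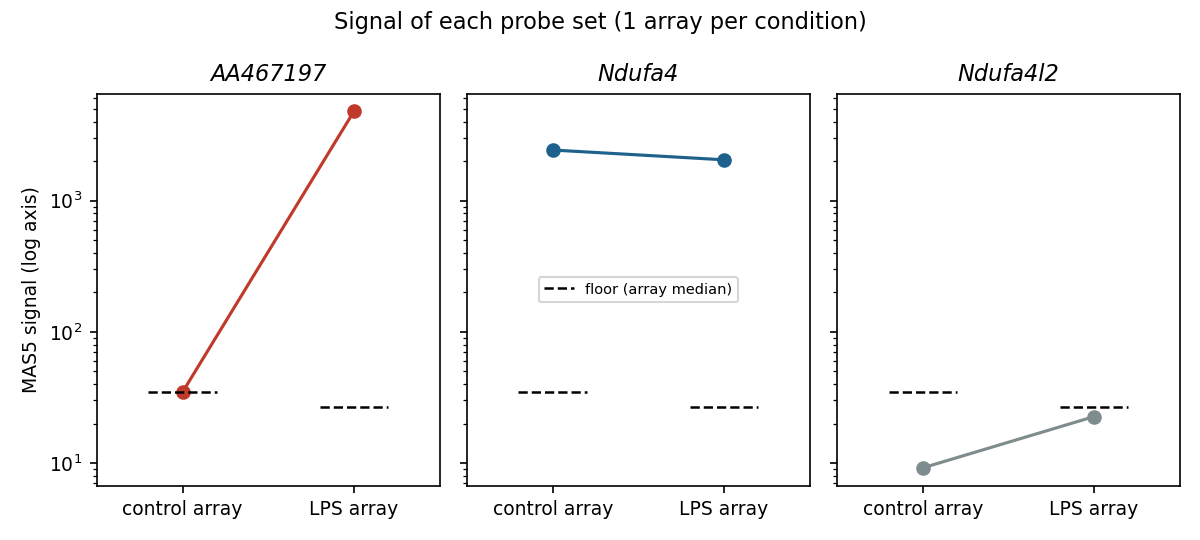
MAS5 signal (log axis) of the probe set of AA467197, Ndufa4 and Ndufa4l2 on the control and the LPS array, 1 point per array, with dashed bars at each array's floor (35.1 and 26.7). AA467197 goes from 34.8 to 4783, Ndufa4 from 2426 to 2043, and Ndufa4l2 stays under both floors; brightness is not comparable between panels.

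The ratio of AA467197 depended on where its control signal was held. With the floor at the 65th percentile it was at least 52.6-fold, with a pseudocount of 16 and no floor 94.4-fold, and after loess correction 196-fold, a fitted value above that of the signals themselves and no bound. The ratio of Ndufa4 lay between -0.40 and 0.18 over the same choices. The ranges of the paralogues did not meet.

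**Figure D2:**
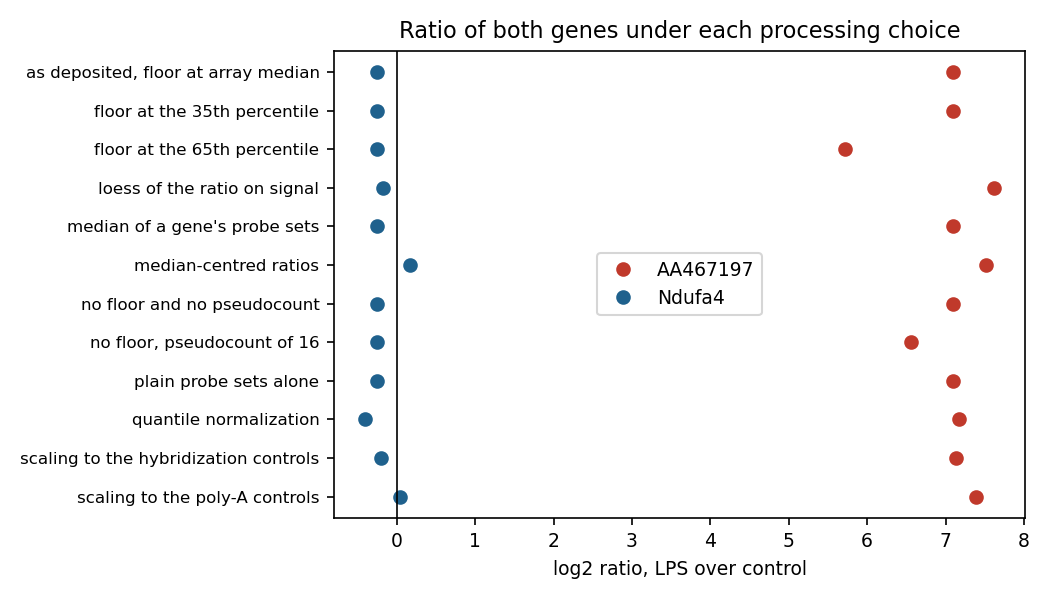
log2 ratio, LPS over control, of AA467197 (red) and Ndufa4 (blue) as deposited and under each alternative floor, scaling or choice of probe set, 1 point per choice. AA467197 lies between 5.72 and 7.61 and Ndufa4 between -0.40 and 0.18.

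Subunits of complex IV lay close to Ndufa4 in ratio. Of 17 nuclear-encoded subunit genes listed, 16 had a probe set of their own (Cox7b had none here) and 14 were measured, since Cox7b2 and Cox8b were under both floors. Past 2-fold there were 0 higher and 0 lower, against 8.22% and 26.2% of all measured genes. At 1.5-fold there were 0 higher and 2 lower, against 13% and 42%, and at 3-fold 0 and 0, against 5.22% and 12.2%. Their median log2 ratio was -0.13, and 10 had a higher and 4 a lower ratio than Ndufa4. The median lay 0.29 above that of all genes, a sign that turned under quantile normalization (-0.16) and loess (-0.16).

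The largest complex IV ratios were small or came from dim probe sets. Cox5a, a nuclear-encoded subunit, went from 6162 to 7312 (0.25 on the log2 scale), and its 3 probe sets ranged from 0.13 to 0.27. Cox6a2, the isoform of heart and skeletal muscle, had 68.1 and 84.2 (0.31). The testis isoform gene Cox8c had 118 and 141 (0.25), with its other probe set at 0.92. Both muscle and testis forms reached 1.02 with loess, just past 2-fold. At the lower end, Cox7c had 59.3 and 31.3 (-0.92), while the testis isoform gene Cox6b2 had 40.6 and 10.7, the latter under the floor (-0.61 as a bound). Cox8a had 2346 and 1815 (-0.37). The ubiquitous subunit Cox4i1, which was named after its values were seen, had 5988 and 5386 (-0.15). Cox8a (0.05) and Cox4i1 (0.27) turned positive after median centring, and Cox4i1 did so with poly-A scaling as well.

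The proteins that build complex IV included genes past 2-fold in both directions. Of 27 assembly and supercomplex factors listed, 24 had a probe set and all 24 of these reached both floors. Past 2-fold, 3 were higher and 6 lower, that is 12.5% and 25%, near the shares over all genes, and the median was -0.33. After centring on the median gene, 6 were higher and 2 lower, against 13.1% and 15.3% of all genes.

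The higher assembly factors were Sco1, Cox18 and Coa5. Sco1, a copper chaperone for the catalytic core, went from 84.5 to 367, 4.34-fold higher. Cox18, which inserts the mitochondrially encoded subunit 2 into the membrane, went from 162 to 481, 2.97-fold higher. Coa5 went from 1715 to 4118, 2.40-fold higher, and its other probe set had a log2 ratio of 1.43. All of these stayed at least 2-fold higher under the 5 scalings tried.

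Lower factors were led by Coa6, Sco2 and Surf1. Coa6, which acts with the copper chaperones, went from 601 to 95.2, 6.32-fold lower. Sco2, the paralogue of Sco1 and a copper chaperone as well, went from 141 to 36.1, 3.91-fold lower, so the Sco1 and Sco2 probe sets lay on opposite sides. Surf1, an early assembly factor, went from 778 to 299, 2.60-fold lower, but it was within 2-fold after median centring and loess. Each of Sco1, Cox18, Sco2, Coa6 and Surf1 rests on a single measured probe set.

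**Figure D3:**
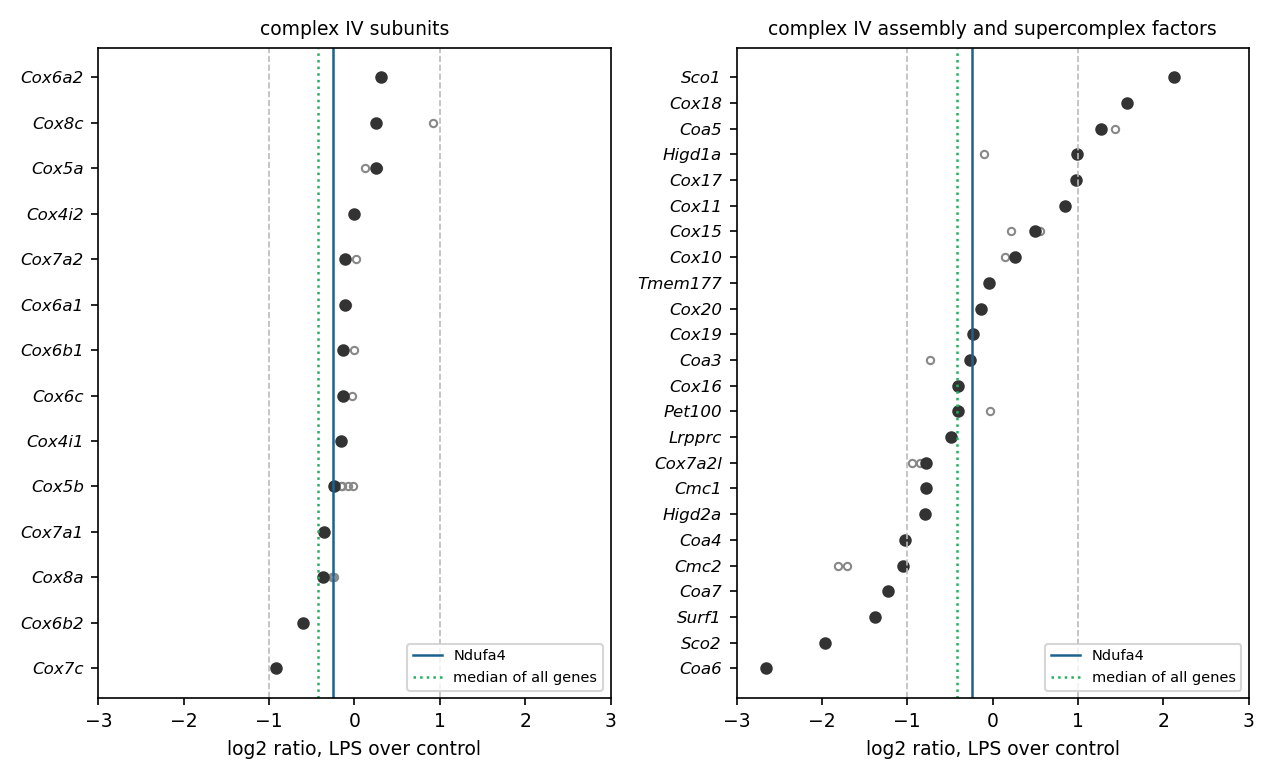
log2 ratio, LPS over control, of measured complex IV subunit genes (left) and assembly and supercomplex factor genes (right); filled points are the probe set used, open points other measured probe sets of the gene, dashed lines mark 2-fold. Subunits lie between -0.92 and 0.31 around Ndufa4 (blue line, -0.25), whereas the factors spread from -2.66 (Coa6) to 2.12 (Sco1).

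Over the subunits of complexes I to IV, cytochrome c and ATP synthase, 75 genes were measured. Of these, 1 was at least 2-fold higher and 1 lower, against 8.22% and 26.2% of all measured genes. The shares differ with brightness: of the 660 genes near Ndufa4 in signal, 126 were higher and 66 lower by more than 2-fold. The median log2 ratio of the 75 was -0.23 and their quartiles were -0.40 and -0.07. Ndufa4 thus lay near the middle, with 41 genes above it and 34 below.

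Of 32 measured complex I genes, the complex to which Ndufa4 was once assigned, 0 were at least 2-fold higher and 1 was lower (median -0.30), against 8.22% and 26.2% of all genes. After median centring the count turned to 1 higher and 0 lower, against 13.1% and 15.3% of all genes. The lower one as deposited was Ndufa6, at 1535 and 746 (2.06-fold), which was within 2-fold under 4 of the 5 scalings. Next came Ndufb10 at -0.63 and Ndufs8 at -0.61. The highest ratios belonged to Ndufs4 (0.60, past 2-fold after median centring, although its 4 probe sets ranged from -0.56 to 0.60), Ndufc1 (0.07) and Ndufb6 (0.03), and the last pair turned negative with quantile normalization.

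Complex II, which oxidizes succinate, had ratios of -0.24 for Sdhc, -0.31 for Sdhd, -0.43 for Sdha and -0.58 for Sdhb. The other measured probe sets of Sdha were lower, at -0.83 and -1.06. After median centring, Sdhc (0.19) and Sdhd (0.11) turned positive, and Sdhc did so with poly-A scaling as well. Of 15 measured ATP synthase genes, 0 passed 2-fold in either direction (median -0.20), against 8.22% higher and 26.2% lower among all genes. Atp5b, at 0.15, was the highest, followed by Atp5g3 (0.10) and Atp5a1 (0.08), and each turned negative with quantile normalization. Atp5c1 was the lowest at -0.66, with its other probe set at -1.74, followed by Atp5g2 (-0.58) and Atp5j (-0.37). Atp5j turned positive after median centring (0.05), while Atp5c1 and Atp5g2 stayed negative under the 5 scalings.

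Among 10 measured genes of complex III and cytochrome c, 1 was at least 2-fold higher and 0 lower (median -0.14). The share of 10% higher is near the 8.22% over all genes, of which 26.2% were lower. The higher one was Cycs, the gene of cytochrome c itself, the electron donor of complex IV and a trigger of apoptosis when released. It went from 1996 to 8398, 4.21-fold higher, and its 3 measured probe sets had log2 ratios between 2.07 and 2.21. Cycs was the only gene of the 75 at least 2-fold higher as deposited, and it stayed at least 2-fold higher under the 5 scalings tried, between 1.99 and 2.50 on the log2 scale. The complex III genes Uqcrfs1 (0.07) and Uqcrq (0.04) came next, both negative with quantile normalization. Uqcr11 (-0.48), Uqcr10 (-0.46) and Cyc1 (-0.29) were lowest. Of these, Cyc1 turned positive after median centring (0.13) and with poly-A scaling.

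**Figure D4:**
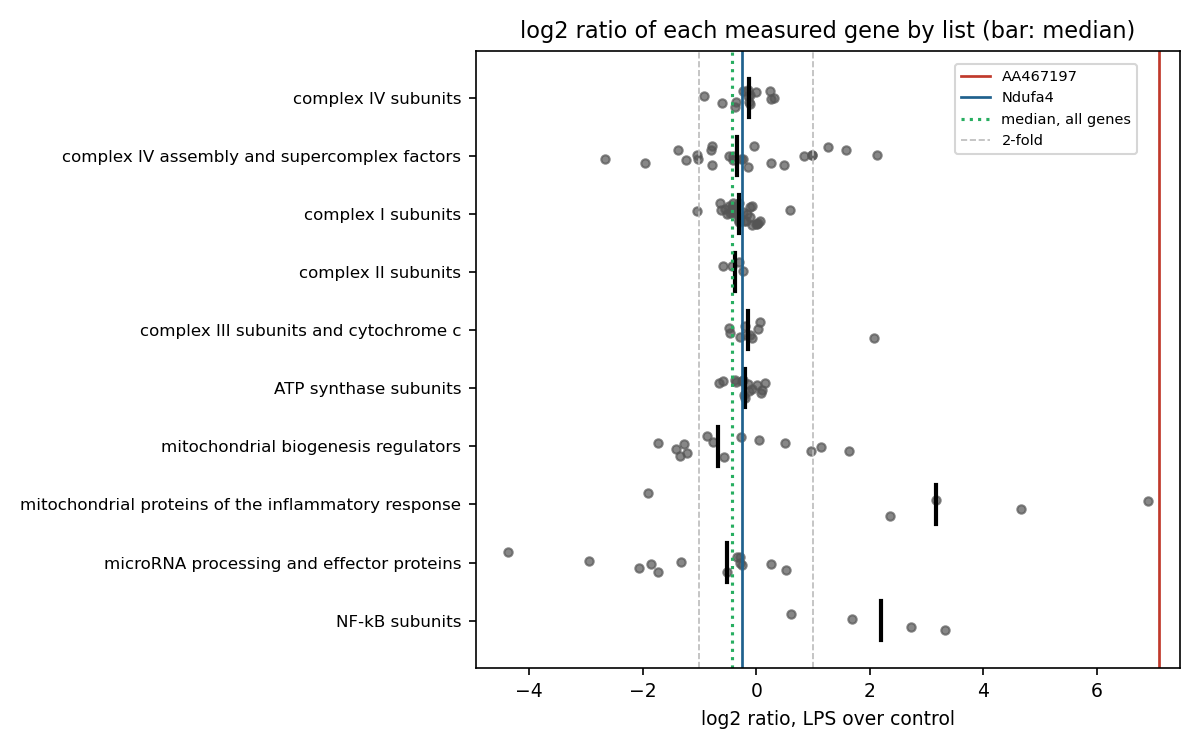
log2 ratio, LPS over control, of each measured gene (points) by gene list, with the list's median as a black bar; vertical lines mark AA467197 (7.09), Ndufa4 (-0.25), the median of all genes (-0.42, dotted) and 2-fold (dashed). Chain subunits cluster at Ndufa4 apart from Cycs (2.07), and Acod1 (6.89) lies nearest to AA467197.

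The genes closest to AA467197 in ratio were picked by the same ratio that chose AA467197, so they are a description. Next above it were Lcn2, which encodes an iron-carrier-binding protein (at least 158-fold), the chemokine gene Ccl7 (171-fold) and the interleukin-1 beta gene Il1b (180-fold). Next below were Acod1, whose mitochondrial enzyme makes itaconate (119-fold), Fscn1, whose protein bundles actin (at least 114-fold), and the chemokine gene Cxcl9 (at least 104-fold). The 4 probe sets of Fscn1 ranged from 0.72 to 6.83, and its ratio was 2.06 with quantile normalization; those of Cxcl9 were at 3.46 and 6.71. Likeness here means the difference in log2 ratio over 2 arrays, at most 0.40 for these 6 genes. AA467197, Lcn2, Fscn1 and Cxcl9 had control signals under the floor, so their order is that of bounds.

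Acod1 was the only one of these 6 that also belongs to the list of mitochondrial proteins of the inflammatory response. Of 5 measured genes of that list, 4 were at least 2-fold higher and 1 lower, against 8.22% and 26.2% of all genes. Cmpk2, a mitochondrial nucleotide kinase, went from 475 to 12110, 25.5-fold higher. Sod2, the superoxide dismutase of the matrix, went from 1037 to 9307, 8.97-fold higher, with its 4 probe sets between 3.05 and 4.17. Pnpt1, an exoribonuclease, was 5.15-fold higher by its brightest probe set, while its dimmest, with a control signal under the floor, was at 0.10. Mavs, the adaptor of RNA sensing on the outer membrane, went from 560 to 149, 3.75-fold lower. This list was written with known LPS response genes in mind, so its direction is not independent evidence.

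Of the NF-kB subunit genes, whose products drive much of the LPS response, 4 were measured; 3 were at least 2-fold higher and 0 lower, against 8.22% and 26.2% of all genes. The increase was 10.0-fold for Nfkb2 (1.83 on the log2 scale in its other probe set), 6.60-fold for Rel and 3.21-fold for Relb. Rela went from 1309 to 1996, which is 0.61 on the log2 scale and passed 2-fold after median centring.

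Genes next to AA467197 on the chromosome were examined in RefSeq gene order, 3 protein-coding genes on either side. The closest on each side were at least 2-fold higher. Spata5l1, which encodes an ATPase of the AAA family, went from 57.8 to 265, 4.58-fold higher, and Slc30a4, a zinc transporter gene, went from 168 to 717, 4.27-fold higher. Further out, the differences were smaller. Gatm, which encodes the mitochondrial enzyme that starts creatine synthesis, had 838 and 522 (-0.68). Bloc1s6, a gene of lysosome-related organelle formation, had 1291 and 1965 (0.61, past 2-fold after median centring). Sqor, the mitochondrial sulfide oxidase gene, had 807 and 629 (-0.36, positive after median centring). Slc28a2b had no probe set of its own here. In all, 2 of 5 measured neighbours were at least 2-fold higher and 0 lower, against 8.22% and 26.2% of all genes.

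All 4 measured neighbours of Ndufa4 were at least 2-fold lower, against 26.2% of all genes, whereas Ndufa4 between them was within 2-fold. Phf14, a chromatin protein gene next to it, went from 543 to 138, 3.93-fold lower, with its 4 measured probe sets between -1.97 and -0.40. Tmem106b, a lysosomal membrane protein gene, went from 1131 to 265, 4.27-fold lower, with probe sets between -2.09 and -0.49. Glcci1 went from 129 to 24.1, under the floor, at least 4.85-fold lower, and Ica1 from 78.7 to 16.5, under the floor, at least 2.95-fold lower. Nxph1 and Thsd7a were under both floors.

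**Figure D5:**
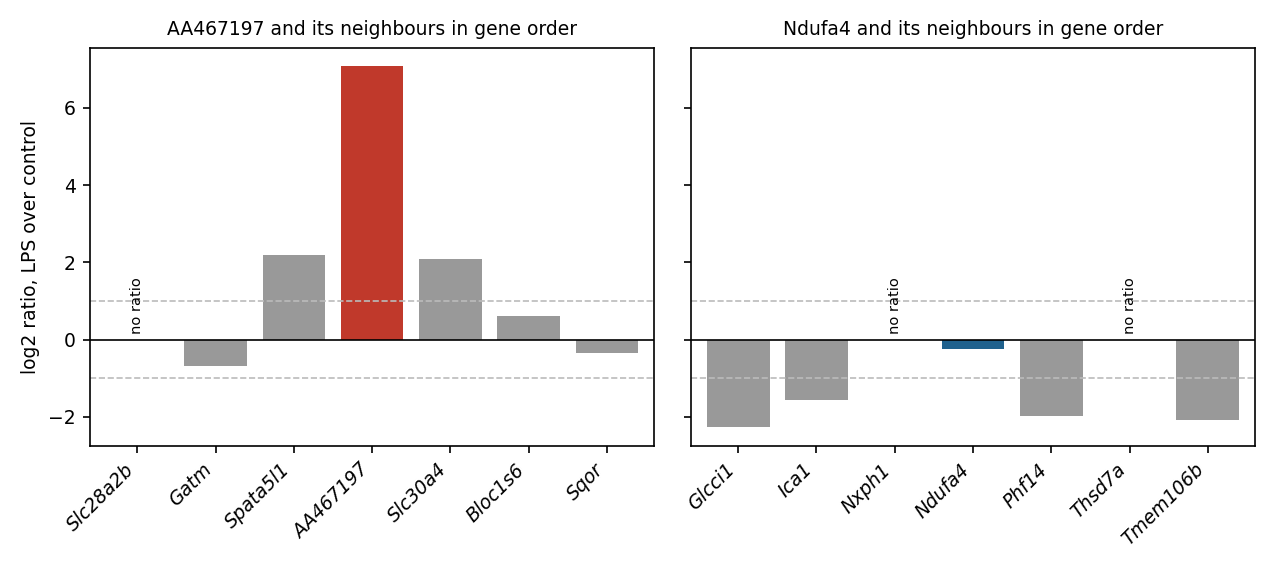
log2 ratio, LPS over control, of AA467197 (left) and Ndufa4 (right) and their 3 protein-coding neighbours on each side in gene order; dashed lines mark 2-fold, and bars of AA467197, Glcci1 and Ica1 are bounds set by the floor. Spata5l1 (2.20) and Slc30a4 (2.10) flank AA467197 (7.09), and the measured neighbours of Ndufa4 lie between -2.28 and -1.56.

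The labelled cell type was borne out by its markers: all 8 macrophage markers, among them Csf1r and Adgre1, reached both floors, and their summed signal was 41183 without and 44120 with LPS. Markers of T cells (4 with a probe set), mast cells or basophils (4) and fibroblasts (5) were under both floors. Of the other lists, Cd79b of B cells, Ngp and Ltf of neutrophils, Zbtb46 of dendritic cells, Klf1 of erythroid cells, and Epcam and Krt8 of epithelial cells reached the floor on at least 1 array. The summed signals of these 8 non-macrophage lists lay between 22.6 and 168 on the control array and between 45.1 and 136 on the LPS array, and their part in the result was not tested.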

How the data were processed

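The authors deposited an intensity on a linear scale for each probe set of each array; per the submitters' processing notes it was computed by MAS5. Its version, scaling target, detection calls and the genome build were not given in the sources used here. Of 45101 probe sets, 64 were array controls, 34945 were assigned to 1 gene by the platform annotation, 932 to several and 9160 were not listed with a gene. Gene identifiers of 34741 were found in the RefSeq table (GRCm38.p6), which changed 0 symbols. Arrays were grouped by their titles.

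A signal under the floor, the median of an array's non-control probe sets (the 50th percentile), was set to the floor before the log2 ratio was taken. No fold is given where both signals were under. A gene was represented by its brightest probe set over both arrays (mean of log2 signals). Genes were counted at 2-fold. The alternatives were a lower floor (35th percentile) or a higher one (65th percentile), a pseudocount of 16, quantile normalization, median centring, loess (span 0.4), scaling to 18 hybridization or 27 poly-A control probe sets, plain probe sets alone, the median over all measured probe sets of each gene, and thresholds of 3-fold and 1.5-fold. Ratios with neither floor nor pseudocount were added after the data were seen. Motifs were also chosen with the promoter windows in view.

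The members, gene lists and rules were chosen with earlier results of these data known. Named genes are both members, Ndufa4l2, the 3 highest and 3 lowest of each list, the 3 nearest above and below AA467197 in ratio, and 3 neighbours on each side. The steps were tested on simulated arrays, in which only genes well above the floor were changed and no shift between arrays was added. That test did not cover a gene at the floor, such as AA467197 in the control, or ratios that vary with brightness. Python 3.11.15, pandas 2.3.3 and statsmodels 0.14.6 were used.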

Additional observations from a re-analysis of the deposited data

How the results depend on the processing

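With 1 array per condition no replicate could be left out, and no paired analysis was possible because the groups hold 1 sample each. A shift of less than 0.28, the median SD between probe sets of a gene, was treated as no move. Against 7.09, the log2 ratio of AA467197 came to 5.72 under a 65th percentile floor, 6.56 with the pseudocount, 7.38 with poly-A scaling, 7.51 after median centring and 7.61 with loess. Its difference from Ndufa4 was 5.97, 6.81 and 7.79 with the 65th percentile floor, the pseudocount and loess. Ndufa4 itself was 0.18 after median centring and 0.045 with poly-A scaling.

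Loess and quantile normalization turned the sign of list medians relative to all genes: -0.16 and -0.16 for complex IV, -0.20 and -0.30 for complex I, -0.26 and -0.36 for complex II, -0.10 and -0.14 for complex III, -0.17 and -0.29 for ATP synthase. The inflammatory mitochondrial list moved to 3.19 and 3.25, and to 2.56 with plain probe sets, where the microRNA list moved to -0.39.

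Counts past 2-fold: complex IV subunits 1 with the 35th percentile floor, the pseudocount or no floor, 2 with loess or at 1.5-fold; complex I 0 with loess, both control scalings or at 3-fold, 2 with probe-set medians or plain probe sets, 4 at 1.5-fold; ATP synthase 1 with probe-set medians, plain probe sets or at 1.5-fold; assembly factors 15 at 1.5-fold and 3 at 3-fold; biogenesis regulators 4 with the 65th percentile floor, probe-set medians or median centring and 2 at 3-fold; all genes 6450 at 1.5-fold and 2040 at 3-fold. These counts pool both directions. For complex IV subunits, the 2 with loess were higher, while the 2 at 1.5-fold and each count of 1 were lower. Biogenesis regulators were 2 higher and 5 lower as deposited, and 0 and 4 with the 65th percentile floor. They were 1 and 3 with probe-set medians, 3 and 1 after median centring, and 1 and 1 at 3-fold. At 1.5-fold, assembly factors were 6 higher and 9 lower, and complex I genes 1 and 3. Of all genes past 2-fold, 964 were higher and 3076 lower as deposited, and 1537 and 1790 after median centring. The cause of these moves was not tested.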

Other observations

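Since AA467197 hosts a microRNA, the genes that process microRNAs and carry out their silencing were also read. Of 13 measured, 0 passed 2-fold on the higher side and 6 on the lower side (46.2%), against 8.22% and 26.2% of all genes. After median centring, 0 were higher and 5 lower, against 13.1% and 15.3% of all genes. The 3 lowest were genes of the silencing complex. Dgcr8 (-1.85) and Prkra (-1.72), which act in processing, and Ago2 (-1.33) were also past 2-fold, while Tnrc6a was at -0.28. Ago2 was within 2-fold after median centring and loess, and the measured probe sets of Dgcr8 ranged from -1.85 to -0.58. Tnrc6a turned positive after median centring and with poly-A scaling. Dgcr8, Prkra, Ago2 and Tnrc6a were named after their values were seen. Tnrc6b, a scaffold protein gene, went from 778 to 37.6, 20.7-fold lower, with its other probe sets at -2.16 and -1.99. Ago4 went from 673 to 87.0, 7.74-fold lower, with its other probe set at -3.53, and Tnrc6c was 4.20-fold lower, although its dimmest probe set was at 0.11. Ago1, at -0.25, Ago3, at 0.27, and Dicer1, at 0.53, had the highest ratios. Dicer1 passed 2-fold with quantile normalization and loess, and its other probe set was at -0.99.

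Of 14 measured regulators of mitochondrial biogenesis, 2 passed 2-fold upward and 5 downward, that is 14.3% and 35.7%, against 8.22% and 26.2% of all genes. After median centring these were 3 and 1, against 13.1% and 15.3% of all genes. Ppargc1b, a coactivator gene of mitochondrial gene expression, went from 46.2 to 144, 3.12-fold higher. Gabpb1 was 2.21-fold higher by its used probe set and at -0.18 by the other. Pprc1 was at 0.97 as deposited and past 2-fold under all 5 scalings, between 1.02 and 1.73. Twnk, the helicase gene of mitochondrial DNA replication, went from 88.5 to 11.7, under the floor, at least 3.32-fold lower. The transcription factor gene Tfb2m was 2.68-fold and the mitochondrial RNA polymerase gene Polrmt 2.54-fold lower (-0.30 in its other probe set), and both were within 2-fold under quantile normalization, median centring and loess.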
